A study of Mus musculus with 13 samples.

Results

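TREM2 is a lipid-sensing receptor of microglia, and the 9 genes described here encode the receptor and the proteins that carry its signal: Trem2, the adaptors Tyrobp and Hcst, the kinase Syk, the scaffold Lat2, the effectors Plcg2, Vav1 and Card9, and the phosphatase Inpp5d. They were taken by gene symbol from a table of 19737 genes, and all 9 were found. All 9 had a mean of at least 1 FPKM (fragments per kilobase of gene length, scaled to the library total) over the 13 libraries and were among the 10817 genes tested.

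The libraries were ribosomal RNA-depleted total RNA from mouse microglia, in a series on double-stranded circular RNA delivered to neurons of 5xFAD mice. The adeno-associated virus AAV PHP.eB-EGFP, which carries a green fluorescent protein, had been given to the wild type group (n = 3) and to 1 of the 5xFAD groups (n = 2). A further 4 5xFAD libraries came from mice given an AAV PHP.eB virus carrying circPOLR2A, a circular RNA; their treatment labels read (9,10), (9,11), (9,12) and (9,13) after that name, and they were grouped by their shared title. The last group was labelled 5xFAD; PKR KO (n = 4), for knockout in 5xFAD mice of PKR, the double-stranded RNA-activated kinase encoded by Eif2ak2. No virus is named for this last group, and it alone carries library names in its labels, so a vector or batch effect cannot be told apart from the knockout. 5xFAD is a transgenic model of amyloid deposition in which human transgenes with familial Alzheimer's disease mutations are driven in neurons by the Thy1 promoter. Age, sex, the method of microglial isolation and whether each library was 1 animal are not given in the sources used here, so the p-values measure the spread between these libraries, which may be technical in part.

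TREM2 has almost no cytoplasmic tail. It pairs in the membrane with TYROBP (DAP12), whose ITAM tyrosines are phosphorylated by Src family kinases and then recruit SYK, and it can also work beside HCST (DAP10), which recruits PI3-kinase. SYK phosphorylates scaffolds such as LAT2 and switches on phospholipase C gamma 2, VAV1 and, through protein kinase C, CARD9, while the phosphatase SHIP1, the product of Inpp5d, binds the chain and removes the PI3-kinase product. In microglia near amyloid plaques the receptor is known for its part in lipid sensing, phagocytosis and the disease-associated state, and TREM2, PLCG2 and INPP5D are genes of human Alzheimer's disease risk.

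Depth recovered from the FPKM steps was 45.2 to 70.0 M (mega) fragments per library. It was 57.7, 70.0, 68.6 and 61.3 M in the PKR KO libraries and 45.2 to 54.9 M in those of the other groups. The 6 microglial markers Tmem119, P2ry12, Cx3cr1, Csf1r, Aif1 and Sall1 all had means above 1 FPKM in every group and summed to 1287 to 2194 FPKM, against 3.16 to 13.2 FPKM for 5 neuronal markers. Wild type replicate 3 stood apart, with a microglial sum of 1404 FPKM, against 2194 and 2182 FPKM in the other wild type libraries, and the highest sum of 5 oligodendrocyte markers (1134 FPKM, against 163 to 576 in the other 12 libraries), and it was the lowest wild type library for 9 of 9 genes of the chain. Eif2ak2 was at 3.35, 4.61, 3.31 and 4.16 FPKM in the libraries labelled PKR KO, at 5.175, 5.23 and 4.14 FPKM in wild type and at 6.49 and 6.59 FPKM in 5xFAD with EGFP. The libraries labelled PKR KO were below both 5xFAD EGFP libraries but overlapped wild type, and RNA of the targeted gene was present in all 4. Which part of the gene is deleted is not given in the sources used here, so a level over the whole gene does not settle the label. In bulk RNA, fewer cells of a type and less RNA per cell cannot be told apart.

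The promoters of 4 members are shown because they bring together genes that differed between wild type and 5xFAD (Trem2, Hcst) and genes that were not called there with all libraries on the authors' scale (Inpp5d, Vav1). Each line holds the 250 bases before the RefSeq start, from GRCm38.p6, 5′ to 3′ on the gene's own strand; capitals mark matches to the core GAGGAA of PU.1, the transcription factor that specifies macrophages and microglia, read on either strand (on the opposite strand it appears as TTCCTC). Trem2 was read at chr17:48346151-48346400 (plus strand), Hcst at chr7:30419855-30420104 (minus strand), Inpp5d at chr1:87620062-87620311 (plus strand) and Vav1 at chr17:57278850-57279099 (plus strand).
Trem2: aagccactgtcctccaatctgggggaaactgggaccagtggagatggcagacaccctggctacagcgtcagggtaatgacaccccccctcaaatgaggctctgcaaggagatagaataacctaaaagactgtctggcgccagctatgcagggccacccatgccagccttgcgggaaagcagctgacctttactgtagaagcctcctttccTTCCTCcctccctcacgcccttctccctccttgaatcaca
Hcst: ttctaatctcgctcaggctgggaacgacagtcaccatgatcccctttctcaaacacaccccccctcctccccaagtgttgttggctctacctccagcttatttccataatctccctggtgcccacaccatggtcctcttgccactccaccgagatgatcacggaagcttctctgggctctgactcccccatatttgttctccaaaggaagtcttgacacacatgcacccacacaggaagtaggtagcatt
Inpp5d: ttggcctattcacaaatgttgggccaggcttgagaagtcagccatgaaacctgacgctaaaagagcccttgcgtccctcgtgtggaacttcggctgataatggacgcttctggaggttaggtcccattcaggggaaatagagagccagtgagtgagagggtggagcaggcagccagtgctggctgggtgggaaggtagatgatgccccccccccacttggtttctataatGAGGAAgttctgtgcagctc
Vav1: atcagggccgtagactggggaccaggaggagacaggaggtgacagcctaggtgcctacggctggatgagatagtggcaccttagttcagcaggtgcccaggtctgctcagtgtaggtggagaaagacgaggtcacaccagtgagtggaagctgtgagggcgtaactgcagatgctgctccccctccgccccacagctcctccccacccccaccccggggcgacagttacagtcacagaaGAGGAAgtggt

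The PU.1 core lay 40 bases before the Trem2 start on the opposite strand, and 20 and 11 bases before the Inpp5d and Vav1 starts on the gene's strand. No match stood in the Hcst window. Over the 8 RefSeq promoters of 7 members (Trem2, Hcst, Syk, Plcg2, Vav1, Card9 and Inpp5d, with 2 starts for Syk), 4 held this core, against 23.3% of all 32851 promoters searched in the same way. The AP-1 site TGACTCA was found in 0 of the 8 and in 4.46% of all promoters, and the E-box CACGTG in 1 of the 8, that of Plcg2, and in 6.02% of all promoters. These 6- and 7-letter matches describe the sequence only, and the PU.1 core stood both in Trem2, which differed between 5xFAD EGFP and wild type, and in Inpp5d and Vav1, which were not called there on the authors' scale.

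The first question was how the chain differs between 5xFAD and wild type microglia. Trem2, Tyrobp, Hcst and Lat2 were higher in the 5xFAD libraries with the EGFP virus than in wild type, by 1.64 to 3.12 times, while Syk, Plcg2, Vav1, Card9 and Inpp5d were not called. With limma on log2(FPKM + 1), 4 of 9 members were called higher at an adjusted p under 0.05 and 0 lower, against 7.65% of all tested genes called higher and 6.35% lower. The libraries of the groups did not overlap for 4 of 9 members, against 37.6% of all tested genes, so separation by itself was common in this comparison. The median log2 change over the 9 members was -0.07, beside -0.03 over all tested genes.

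Trem2 (ENSMUSG00000023992.14, GRCm38 chr17:48346401-48354147, plus strand) encodes the receptor. It stood at 79.4, 86.9 and 52.9 FPKM in the wild type libraries and at 170.0 and 151 FPKM in the 5xFAD EGFP libraries. With the circRNA virus it was at 174, 197, 262 and 158 FPKM, and with PKR KO at 233, 222, 209.5 and 196 FPKM. Every 5xFAD library of the 3 groups lay above every wild type library. The group means were 73.1 ± 17.9 FPKM (SD, n = 3) in wild type and 160.4 ± 13.6 (SD, n = 2) in 5xFAD with EGFP, which is 2.20 times the wild type level. The log2 change was 1.15 (SE 0.23, limma adjusted p = 0.00561), a call lost in 2 of 15 alternatives.

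Tyrobp (ENSMUSG00000030579.10, chr7:30413760-30417585, plus strand) encodes the ITAM adaptor through which the receptor signals. It stood at 239.5, 246 and 138 FPKM in wild type and at 701 and 596 FPKM in 5xFAD with EGFP. The circRNA libraries held 735, 800.1, 825 and 531 FPKM, and the PKR KO libraries 691, 661, 717 and 628 FPKM. It had the largest change of the 9 genes, and the lowest 5xFAD library, at 531 FPKM, stood above the highest wild type library. Its mean was 208 ± 60.4 FPKM (SD, n = 3) in wild type and 649 ± 74.4 (SD, n = 2) in 5xFAD with EGFP, a 3.12-fold difference. The log2 change was 1.68 (SE 0.26, limma adjusted p = 0.00109).

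Hcst (ENSMUSG00000064109.8, chr7:30417712-30419854, minus strand) encodes the other membrane adaptor and was the lowest gene of the chain in every group. It stood at 1.26, 2.88 and 1.24 FPKM in wild type and at 4.19 and 3.81 FPKM in 5xFAD with EGFP. The circRNA libraries held 3.60, 4.56, 5.18 and 3.25 FPKM, and the PKR KO libraries 4.15, 4.75, 6.12 and 3.52 FPKM. Wild type replicate 2 lay nearer to the 5xFAD libraries than to the other wild type libraries, but the groups did not overlap. The log2 change in 5xFAD with EGFP was 0.89 (SE 0.24, limma adjusted p = 0.0292) for a 2.24-fold ratio of means, and without wild type replicate 3 it was 0.76 with an adjusted p of 0.0592, one of 6 alternatives in which the call was lost.

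These Hcst values rest on 43 to 303 fragments per library, a counting error of 5.75 to 15.3%, whereas each other member had at least 1410.5 fragments and an error of at most 2.66%. Counting error is only part of the error between libraries. Hcst and Tyrobp end 126 bases apart on opposite strands, and the strand setting of the counting is not given in the sources used here, so reads past the end of Tyrobp, the more abundant of the pair, could enter Hcst; this was not tested. Hcst RNA is also made by T and NK cells, whose markers (6 of the 7 listed were in the table) summed to 0.0864 to 0.152 FPKM in wild type and 0.195 to 0.679 FPKM in the 5xFAD libraries. Their part in the Hcst difference was not tested.

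Lat2 (ENSMUSG00000040751.12, chr5:134600022-134615025, minus strand) encodes NTAL, a transmembrane scaffold phosphorylated by SYK. It stood at 12.7, 15.9 and 10.7 FPKM in wild type and at 21.6 and 21.3 FPKM in 5xFAD with EGFP. With circRNA it was at 22.1, 27.9, 30.2 and 21.7 FPKM, and with PKR KO 25.5, 31.7, 24.9 and 26.7 FPKM. All 10 5xFAD libraries were above the wild type range. The ratio of means in 5xFAD with EGFP was 1.64 and the log2 change 0.69 (SE 0.17, limma adjusted p = 0.0189), a call lost in 4 of 15 alternatives, with adjusted p of 0.0536 to 0.125. Exons of Lat2 overlap those of Rfc2 on the opposite strand, a replication factor subunit at 2.66 FPKM in wild type and 2.76 FPKM in 5xFAD with EGFP (log2 change 0.04, adjusted p = 0.818).

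**Figure D1:**
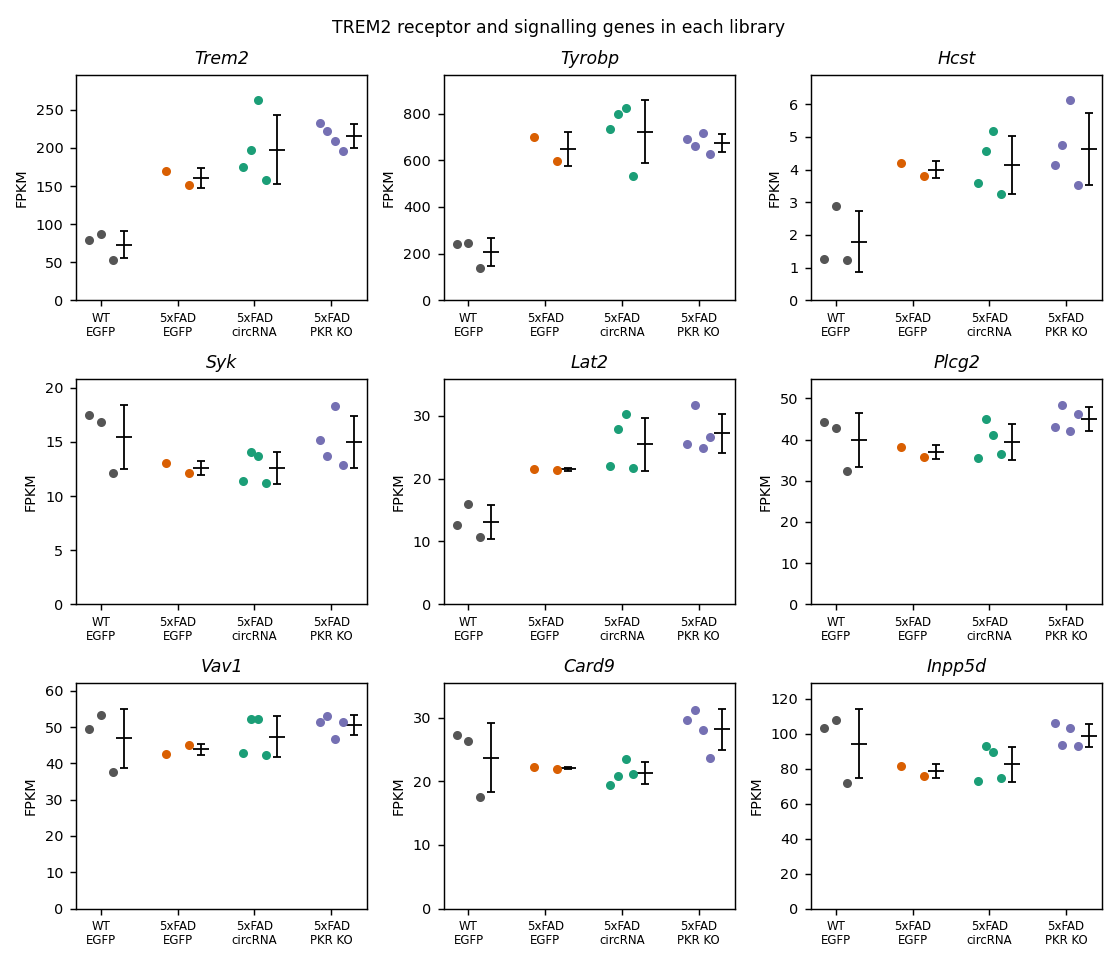
FPKM of the 9 genes in each of the 13 libraries (points; y axis from 0, separate scale for each gene) in wild type with EGFP (n = 3), 5xFAD with EGFP (n = 2), 5xFAD with circRNA (n = 4) and 5xFAD; PKR KO (n = 4), with group means and SD. Trem2, Tyrobp, Hcst and Lat2 show wild type points below all 5xFAD points, whereas the wild type and 5xFAD points overlap for Syk, Plcg2, Vav1, Card9 and Inpp5d.

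Syk (ENSMUSG00000021457.14, chr13:52583173-52648792, plus strand) encodes the tandem SH2-domain kinase that docks on phosphorylated TYROBP. It stood at 17.5, 16.9 and 12.1 FPKM in wild type and at 13.0 and 12.1 FPKM in 5xFAD with EGFP. The circRNA libraries held 11.35, 14.1, 13.7 and 11.2 FPKM, and the PKR KO libraries 15.2, 13.7, 18.4 and 12.8 FPKM. The lowest wild type library fell among the 5xFAD libraries. The log2 change in 5xFAD with EGFP was -0.27 (95% interval -0.63 to 0.10, limma adjusted p = 0.359).

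Plcg2 (ENSMUSG00000034330.10, chr8:117498291-117635142, plus strand) encodes phospholipase C gamma 2, which splits PIP2 into calcium-releasing and PKC-activating messengers. It stood at 44.3, 42.9 and 32.3 FPKM in wild type and at 38.1 and 35.7 FPKM in 5xFAD with EGFP, with a log2 change of -0.09 (95% interval -0.41 to 0.22, limma adjusted p = 0.733). In the circRNA group it was at 35.4, 45.0, 41.0 and 36.6 FPKM, and in the PKR KO group at 43.1, 48.5, 42.0 and 46.2 FPKM. Wild type replicates 1 and 2 were above both 5xFAD EGFP libraries and replicate 3 was below them.

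Vav1 (ENSMUSG00000034116.17, chr17:57279100-57328031, plus strand) encodes a haematopoietic exchange factor for Rac GTPases. It stood at 49.4, 53.4 and 37.7 FPKM in wild type and at 42.7 and 45.0 FPKM in 5xFAD with EGFP, with a log2 change of -0.08 (95% interval -0.40 to 0.24, limma adjusted p = 0.789). Values with circRNA were 42.9, 52.2, 52.2 and 42.4 FPKM and with PKR KO 51.4, 53.0, 46.6 and 51.3 FPKM. All 10 5xFAD libraries fell inside the wild type range.

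Card9 (ENSMUSG00000026928.14, chr2:26352176-26360918, minus strand) encodes the adaptor that links SYK-coupled receptors to NF-kappaB. It stood at 27.3, 26.4 and 17.5 FPKM in wild type and at 22.2 and 21.9 FPKM in 5xFAD with EGFP, with a log2 change of -0.07 (95% interval -0.44 to 0.29, limma adjusted p = 0.831). The circRNA libraries held 19.4, 20.8, 23.6 and 21.1 FPKM and the PKR KO libraries 29.6, 31.2, 28.0 and 23.7 FPKM. Both 5xFAD EGFP libraries lay inside the wild type range, and 3 of 4 PKR KO libraries lay above it. The non-coding gene Gm13562 overlaps Card9 exons on the opposite strand.

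Inpp5d (ENSMUSG00000026288.14, chr1:87620312-87720507, plus strand) encodes SHIP1, the inhibitor of the chain. It stood at 104, 108 and 71.6 FPKM in wild type and at 81.5 and 75.8 FPKM in 5xFAD with EGFP, with a log2 change of -0.24 (95% interval -0.61 to 0.14, limma adjusted p = 0.426). With circRNA it was at 72.9, 92.8, 89.4 and 74.9 FPKM and with PKR KO 106, 93.8, 103 and 93.1 FPKM. Wild type replicate 3 was below every 5xFAD library and replicates 1 and 2 were above both EGFP libraries. Without replicate 3, Inpp5d was called lower in 5xFAD with EGFP (log2 change -0.42, limma adjusted p = 0.0463), as it was with all libraries after quantile normalization (-0.56, adjusted p = 0.0105).

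Leaving out single libraries also bore on the genes that rose. Tyrobp remained called under each of the 15 alternatives run for this comparison, whereas Trem2 lost its call in 2 of them, Lat2 in 4 and Hcst in 6, with no change of direction. With the 5 libraries of these groups fitted alone, only Tyrobp was called and the adjusted p was 0.0647 for Trem2, 0.0906 for Lat2 and 0.112 for Hcst. The limma adjusted p of Trem2 was 0.0595 without 5xFAD EGFP replicate 1. That of Lat2 was 0.0536 without wild type replicate 1 and 0.110 and 0.125 without 5xFAD EGFP replicates 1 and 2. That of Hcst was 0.0981 without wild type replicate 1 and 0.163 and 0.138 without the same 5xFAD libraries, and 0.0521 with no filter on low values. Over all genes the calls also fell, from 1514 to 509 with these groups alone, to 1116 without wild type replicate 1 and to 666 and 566 without 5xFAD EGFP replicates 1 and 2.

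The 5xFAD groups with circRNA and PKR KO were compared with the same wild type libraries, so these comparisons share their controls and are given side by side. In both, 4 of 9 members were called higher and 0 lower by limma, and the 4 were again Trem2, Tyrobp, Hcst and Lat2. The count of 0 lower was not stable for circRNA: it became 4 after quantile normalization, 4 with the same column sum, 3 with arrayWeights, 3 without wild type replicate 3 and 1 with the marker covariate, and for PKR KO it became 1 after quantile normalization. For circRNA the calls over all 10817 genes, in both directions, went from 2796 to 3163, 5676, 2947, 2577 and 3375 under the same settings, and the same column sum moved the median of all genes from 0.02 to -0.20. Of all tested genes, 17.8% were called higher and 8.05% lower with circRNA, and 17.5% higher and 19.4% lower with PKR KO. The libraries of the groups did not overlap for 4 of 9 members in each comparison, against 28.2% of all tested genes with circRNA and 40.9% with PKR KO. The median log2 change over the 9 members was 0.02 with circRNA, as over all tested genes (0.02), and 0.26 with PKR KO (-0.05 over all tested genes).

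Trem2 was 2.71 times the wild type level with circRNA (log2 change 1.43, limma adjusted p = 0.000167) and 2.95 times with PKR KO (1.57, adjusted p = 6.299e-05). Tyrobp was 3.47 times the wild type level with circRNA (log2 change 1.82, adjusted p = 6.296e-05) and had a log2 change of 1.74 with PKR KO (adjusted p = 7.136e-05). The log2 changes of Hcst were 0.92 with circRNA (adjusted p = 0.00584) and 1.04 with PKR KO (adjusted p = 0.00197). Those of Lat2 were 0.91 (adjusted p = 0.000623) and 1.01 (adjusted p = 0.000222). These 4 genes kept their calls under each of the 17 alternatives run for either comparison.

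For Syk, Plcg2, Vav1, Card9 and Inpp5d the log2 changes against wild type lay between -0.27 (Syk, limma adjusted p = 0.195) and 0.02 (Vav1, adjusted p = 0.913) with circRNA. With PKR KO they lay between -0.04 (Syk, adjusted p = 0.856) and 0.26 (Card9, adjusted p = 0.172), but after quantile normalization Inpp5d turned from 0.09 to -0.42 and was called lower (adjusted p = 0.0103). With circRNA, quantile normalization called Syk (-0.41), Plcg2 (-0.30), Vav1 (-0.29) and Inpp5d (-0.62) lower, at adjusted p of 0.00128 to 0.0315. Without wild type replicate 3, 3 of these genes were called lower with circRNA: Syk at -0.43 (adjusted p = 0.0334), Card9 at -0.33 (adjusted p = 0.0433) and Inpp5d at -0.36 (adjusted p = 0.0392). With the marker covariate Syk alone of these was called lower (-0.33, adjusted p = 0.0483). Wild type replicate 3 had the high oligodendrocyte marker sum given above; the part of other cells in these values was not tested.

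**Figure D2:**
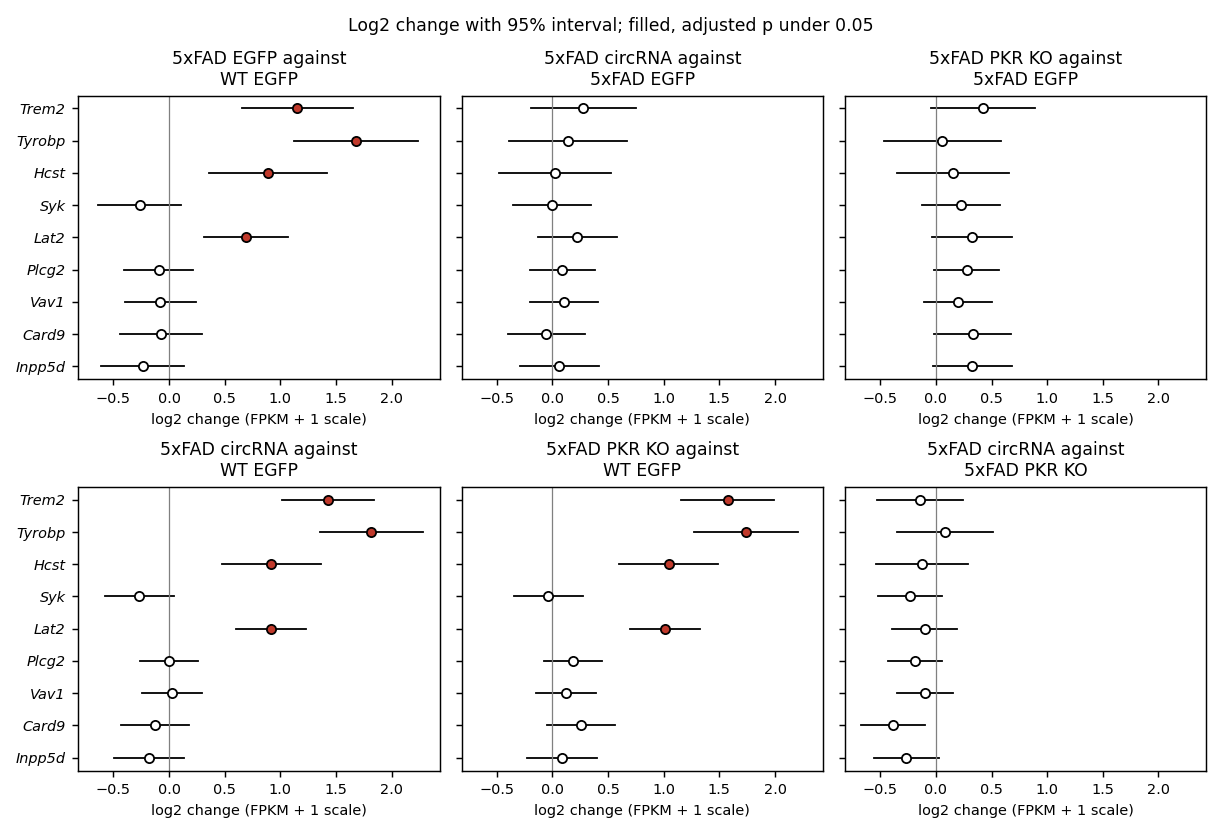
Log2 change of each of the 9 genes on the log2(FPKM + 1) scale (x axis) with its 95% interval from limma, for the comparisons of the 3 5xFAD groups with wild type and of the circRNA and PKR KO groups with 5xFAD EGFP and with each other. Against wild type the intervals of Trem2, Tyrobp, Hcst and Lat2 lie above 0 in all 3 5xFAD groups, and against 5xFAD EGFP every interval spans 0.

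The next question was whether the circular RNA changed the chain in 5xFAD microglia. Against 5xFAD with EGFP 0 of 9 genes were called, and of all tested genes 0% were called higher and 0% lower. By limma 0 of 9 had an unadjusted p under 0.05, while 523 of all 10817 genes did. The log2 changes were 0.28 for Trem2 (95% interval -0.19 to 0.75, adjusted p = 0.743), 0.14 for Tyrobp (-0.39 to 0.67, adjusted p = 0.847) and 0.03 for Hcst (-0.48 to 0.53, adjusted p = 0.974). For Lat2 the change was 0.22 (-0.13 to 0.58, adjusted p = 0.739), and Lat2 was the only member whose groups did not overlap, 1 of 9, against 19.3% of all tested genes. The missed tests do not show equal levels, since the interval for Trem2 reaches 0.75 log2 units upward.

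For the other genes the change with circRNA lay between -0.05 (Card9) and 0.10 (Vav1), with -0.003 for Syk. The median over the 9 members was 0.09, beside 0.08 over all tested genes. The circRNA libraries varied among themselves: replicates 2 and 3 were each above replicates 1 and 4 for every member but Card9. In replicates 1 and 4 the oligodendrocyte marker sum was 568 and 576 FPKM and the microglial sum 1428 and 1287 FPKM, against 224.5 and 229 FPKM and 1769 and 1870 FPKM in replicates 2 and 3. The part of other cells in this spread was not tested.

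In the libraries labelled PKR KO, 9 of 9 log2 changes against 5xFAD EGFP were above 0 on the authors' scale, while Tyrobp was at -0.0007 with columns rescaled to the same sum and Vav1 at -0.00067 after quantile normalization. With the other cells' markers as a covariate Tyrobp was at -0.16 and Hcst at -0.0249. None was called: 0 of 9 passed the adjusted test by limma and 0 of 9 had an unadjusted p under 0.05, where 1404 of all 10817 genes did. Of all tested genes 0.0832% were called higher and 0% lower. The changes ranged from 0.06 for Tyrobp (adjusted p = 0.931) to 0.42 for Trem2 (95% interval -0.05 to 0.89, adjusted p = 0.426), and their median was 0.28, beside 0.008 over all tested genes. After quantile normalization 7 of 9 were smaller, at 0.24 for Trem2, 0.23 for Lat2, 0.22 for Card9, 0.15 for Syk, 0.14 for Inpp5d, 0.11 for Plcg2 and the Vav1 value above, while Tyrobp (0.086) and Hcst (0.17) were larger.

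The PKR KO and 5xFAD EGFP libraries did not overlap for 6 of 9 members, against 34.8% of all tested genes: Trem2, Lat2, Plcg2, Vav1, Card9 and Inpp5d were higher in 4 of 4 PKR KO libraries. Oligodendrocyte marker sums also separated these groups, at 163 to 263 FPKM with PKR KO against 486 and 524 FPKM with EGFP. So did neuronal sums, at 4.08 to 7.02 against 11.4 and 9.74 FPKM. In the fit with the marker covariate 0 of 9 members were called, as without it, so that count cannot show the part of other cells. Their part in these values was not tested further. Among the members without overlap the changes were 0.32 for Lat2 (limma adjusted p = 0.420), 0.28 for Plcg2 (0.414), 0.20 for Vav1 (0.549), 0.33 for Card9 (0.404) and 0.33 for Inpp5d (0.418). None of these passed the test after the correction over all genes. Under arrayWeights, which gives variable libraries less weight, Card9 was called higher (0.36, adjusted p = 0.0478), while over all 10817 genes the calls rose from 9 to 822.

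Between the circRNA and PKR KO groups 0 of 9 members were called, while 4.28% of all tested genes were called higher and 1.91% lower with circRNA. Each of the 4 circRNA libraries was below each of the 4 PKR KO libraries for Card9, at 21.2 ± 1.71 FPKM (SD, n = 4) against 28.1 ± 3.23 (SD, n = 4). Its log2 change was -0.39 (95% interval -0.67 to -0.10, unadjusted p = 0.0120, limma adjusted p = 0.0929). It was the only member with an unadjusted p under 0.05 here.

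Inpp5d also showed no overlap, at 82.5 ± 10.0 FPKM against 99.0 ± 6.59 (SD, n = 4 each), with a log2 change of -0.27 (limma adjusted p = 0.232). These were 2 of 9 members without overlap, against 19.5% of all tested genes. The adjusted p of the other 7 members lay between 0.286 and 0.831, and Tyrobp was the only one of the 9 with a change above 0 (0.08, but -0.0175 after quantile normalization and -0.0480 with median-ratio scaling); with the marker covariate Hcst (0.0178), Lat2 (0.0391) and Vav1 (0.0307) were above 0 too. The median over the 9 members was -0.14, beside 0.08 over all tested genes. Card9 was called lower with median-ratio scaling (-0.51, limma adjusted p = 0.0300) and with these groups fitted alone (adjusted p = 0.0424). Under these settings the calls over all 10817 genes rose from 670 to 845 and 893. With arrayWeights 4 members were called lower with circRNA: Card9 (-0.48, adjusted p = 0.00253), Inpp5d (-0.37, adjusted p = 0.0107), Plcg2 (-0.27, adjusted p = 0.0242) and Syk (-0.32, adjusted p = 0.0295). Over all 10817 genes the calls rose from 670 to 3161 under that setting.

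The order of the levels along the chain, in FPKM over the length of all exons and within each group, differed between wild type and 5xFAD. In wild type the order from the highest mean was Tyrobp, Inpp5d, Trem2, Vav1, Plcg2, Card9, Syk, Lat2 and Hcst. In each 5xFAD group Trem2 stood above Inpp5d, and Lat2 stood above Syk (with circRNA also above Card9). In wild type the ranges of these neighbours overlapped, although Inpp5d was above Trem2 and Syk above Lat2 in 3 of 3 libraries.

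Other neighbours with overlapping ranges were Trem2 and Vav1, Vav1 and Plcg2, and Card9 and Syk in wild type, Vav1 and Plcg2 and then Lat2 and Card9 with circRNA, and Vav1 and Plcg2 and then Card9 and Lat2 with PKR KO. The exon length used matters for this order. All Trem2 exons together span 4946 bases, 4.55 times its longest coding transcript, so per length of that transcript the Trem2 level was 332 in wild type and 729, 899.7 and 979 in the 5xFAD EGFP, circRNA and PKR KO groups. On that scale Tyrobp stood at 232, 725, 807 and 753, and Trem2 was above Tyrobp in 3 of 3, 1 of 2, 3 of 4 and 4 of 4 libraries. That scale divides all fragments of a gene by the length of 1 transcript, and the use of transcripts was not estimated. Inpp5d stood at 145 in wild type on that scale (110 to 166, against 240 to 395 for Trem2). Trem2 was thus above Inpp5d in wild type too, so the change of their order depends on the length used. Lat2 stood at 19.97 in wild type, below Syk (27.0) and Card9 (27.9), and above both in each 5xFAD group: 32.7 against 21.9 and 25.97 with EGFP, 38.8 against 22.0 and 25.02 with circRNA, and 41.5 against 26.2 and 33.1 with PKR KO.

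Ratios within a library remove the library's own scale and are given as descriptions. The Trem2 to Syk ratio of FPKM values was 469% ± 41.2 in wild type (SD, n = 3; 437 to 516%) and 1275% ± 43.8 in 5xFAD with EGFP (SD, n = 2; 1244 to 1306%). It was 1564% ± 244 with circRNA (SD, n = 4; 1396 to 1918%) and 1457% ± 215 with PKR KO (SD, n = 4; 1142 to 1623%). Wild type and 5xFAD libraries did not overlap: receptor RNA was at a higher level relative to kinase RNA in all 10 5xFAD libraries.

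The scaffold to kinase ratio, Lat2 to Syk, showed the same separation, with 72.4 to 94.4% in wild type against 166 to 176%, 193 to 221% and 136 to 232% in the 5xFAD EGFP, circRNA and PKR KO groups. The kinase to inhibitor ratio, Syk to Inpp5d, was 15.60 to 16.9% in wild type, 15.96 to 15.98% with EGFP, 14.99 to 15.58% with circRNA and 13.8 to 17.8% with PKR KO. The EGFP and PKR KO libraries overlapped wild type, and the circRNA libraries lay just below it. The receptor to adaptor ratio, Trem2 to Tyrobp, was 33.2 to 38.2% in wild type and 24.2 to 25.3% in 5xFAD with EGFP, where Tyrobp had the larger change. It was 23.7 to 31.8% with circRNA and 29.2 to 33.7% with PKR KO, the latter reaching into the wild type range. The Hcst to Tyrobp ratio was 0.526 to 1.17% in wild type and 0.490 to 0.854% over the 5xFAD groups; it was at most 1.17% in any library.

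**Figure D3:**
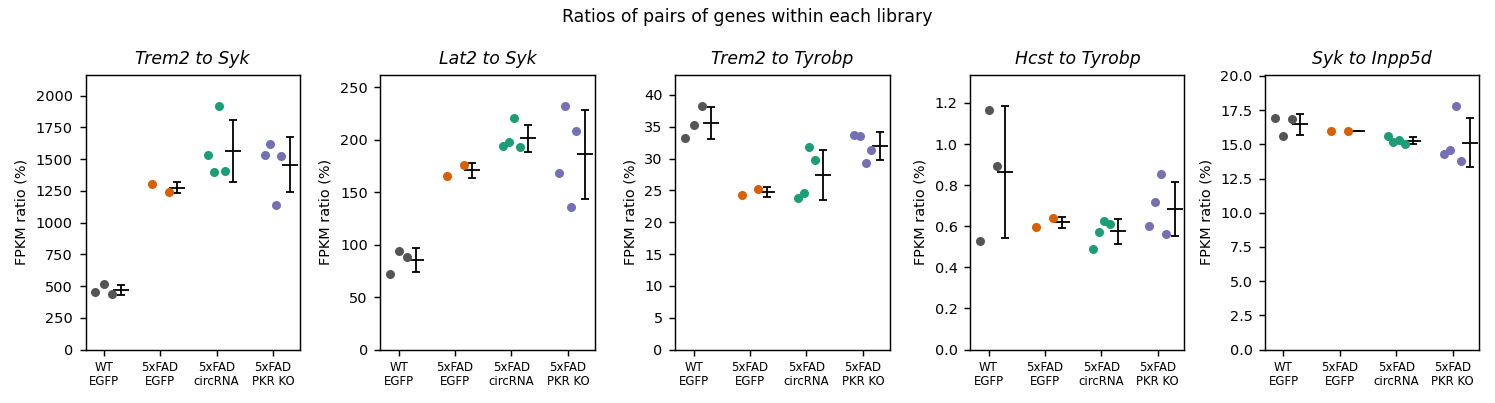
Ratios of FPKM values within each library, in percent (y axis from 0, separate scale for each panel), by group; points are libraries and bars mark mean and SD. The ratios of Trem2 and Lat2 to Syk lie higher in all 10 5xFAD libraries than in the 3 wild type libraries, while the Syk to Inpp5d ratio of wild type overlaps that of the EGFP and PKR KO groups and lies just above that of the circRNA group.

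The genes whose log2(FPKM + 1) pattern over the 13 libraries was most like that of each member were listed by Pearson correlation; the libraries share group differences and marker content, so these values describe these libraries only. Nearest to Trem2 were Tmed3 (r = 0.994), Gm49369 (0.993) and the ferritin gene Ftl1, which has near-identical copies (0.992), and nearest to Tyrobp were the lysosomal enzyme genes Hexa (0.994), Gusb (0.989) and Ctsb (0.988). Nearest to Hcst were Syngr1 (0.941), Crlf2 (0.939) and Sdf2l1 (0.937), and nearest to Lat2 were Lrrc8d (0.986), Mapkapk2 (0.985) and Slc38a10 (0.984). Nearest to Syk were Rnf135 (0.946), Herpud1 (0.943) and Pag1 (0.938), and nearest to Plcg2 were Dock8 (0.950), Uvrag (0.946) and Apobec3 (0.936). Those of Vav1 were Il4ra (0.958), Pik3ap1 (0.947) and Tnfrsf11a (0.940), and those of Card9 were Cdk9 (0.958), Gramd1a (0.958) and Gmip (0.957). For Inpp5d they were Mertk (0.977), a receptor for phagocytosis of apoptotic cells, Wdr81 (0.964) and Pald1 (0.958). No member was among the 3 nearest genes of another.

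The wider pathway was read from a list of 76 genes that feed, relay or restrain the chain, all in the table and 70 tested. In 5xFAD with EGFP against wild type 13 were called higher and 6 lower (limma), with a median log2 change of -0.05, beside -0.03 over all tested genes, of which 7.65% were called higher and 6.35% lower. By role, 1 of 5 ligands and sheddases was called higher, 1 of 5 tested other receptors and ITAM adaptors higher (Cd300lb), 2 of 6 Src family kinases higher (Fgr and Fyn) and 1 lower, and 3 of 9 Tec kinases and scaffolds higher. Of 7 phosphatases and docking inhibitors 3 were called higher and 1 lower, of 16 genes of PI3-kinase, AKT and mTOR 0 higher and 1 lower, and of 14 genes of phospholipase C, calcium and PKC 3 higher and 3 lower. Of 3 CARD9 partners 0 were called, and of 5 tested genes for Rac, Cdc42 and their partners 0 were called.

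Apoe, the lipid carrier that TREM2 binds, rose from a mean of 324 to 1855 FPKM (log2 change 2.51, limma adjusted p = 6.71e-06). Among the kinases upstream of Syk, Fgr rose from 0.591 to 3.88 FPKM (1.62, adjusted p = 0.0001296) and Fyn from 3.79 to 6.76 FPKM (0.73, adjusted p = 0.00767). Tec, a kinase that acts on phospholipase C gamma, rose from 8.28 to 14.5 FPKM (0.76, adjusted p = 0.00335), and the scaffold Sh3bp2 from 11.7 to 19.2 FPKM (0.69, adjusted p = 0.00345). Cd300lb, another receptor that pairs with TYROBP, rose from 0.133 to 1.04 FPKM (0.85, adjusted p = 0.00092). Cd300lb and Fgr lay under 1 FPKM in wild type and passed the filter only through their 5xFAD levels, so that their difference, and the counts of their roles above, are in part set by the filter.

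Among the regulators that restrain the chain, genes were called in both directions. Ptpn6, encoding the phosphatase SHP-1, rose from 35.7 to 58.8 FPKM (log2 change 0.73, limma adjusted p = 0.0174). Ptprc, encoding the phosphatase CD45, which can both activate and restrain Src family kinases, rose from 11.6 to 18.9 FPKM (0.67, adjusted p = 0.00839), and Dgkz, a kinase that removes diacylglycerol, rose from 19.2 to 39.8 FPKM (1.01, adjusted p = 0.000119). Dok3, a docking protein that restrains ITAM signals, fell from 10.8 to 4.00 FPKM (-1.20, adjusted p = 0.0136). Downstream of Plcg2, the calcium channel gene Itpr3 fell from 8.04 to 4.33 FPKM (-0.76, adjusted p = 0.00216) and the kinase gene Prkca from 7.41 to 3.95 FPKM (-0.76, adjusted p = 0.000116). In the same role Prkcb rose from 12.6 to 16.5 FPKM (0.37, limma adjusted p = 0.0161) and Rasgrp3 from 25.9 to 37.9 FPKM (0.54, adjusted p = 0.0212). Plcg1 fell from 15.2 to 9.87 FPKM (-0.57, adjusted p = 0.00403). Marker sums of mural cells were 49.2 to 107.5 FPKM in wild type and 17.9 to 45.0 FPKM in 5xFAD. Those of border macrophages were 28.8 to 46.0 against 10.6 to 19.5 FPKM, and those of endothelial cells 58.2 to 129 against 24.7 to 72.3 FPKM. Those of monocytes were 7.004 to 10.1 against 2.90 to 5.93 FPKM. Of the 5 monocyte markers only F13a1 had means above 1 FPKM (7.58 in wild type, 3.46 in 5xFAD with EGFP). Ly6c2, at 0.135 and 0.296 FPKM, was the only one higher in 5xFAD with EGFP. Neuronal sums were 3.88 to 13.2 FPKM in wild type and 9.74 to 11.4 FPKM in 5xFAD with EGFP. Oligodendrocyte sums were 265.5 to 1134 and 486 to 524 FPKM. The part of these cells in the genes that fell or rose was not tested.

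**Figure D4:**
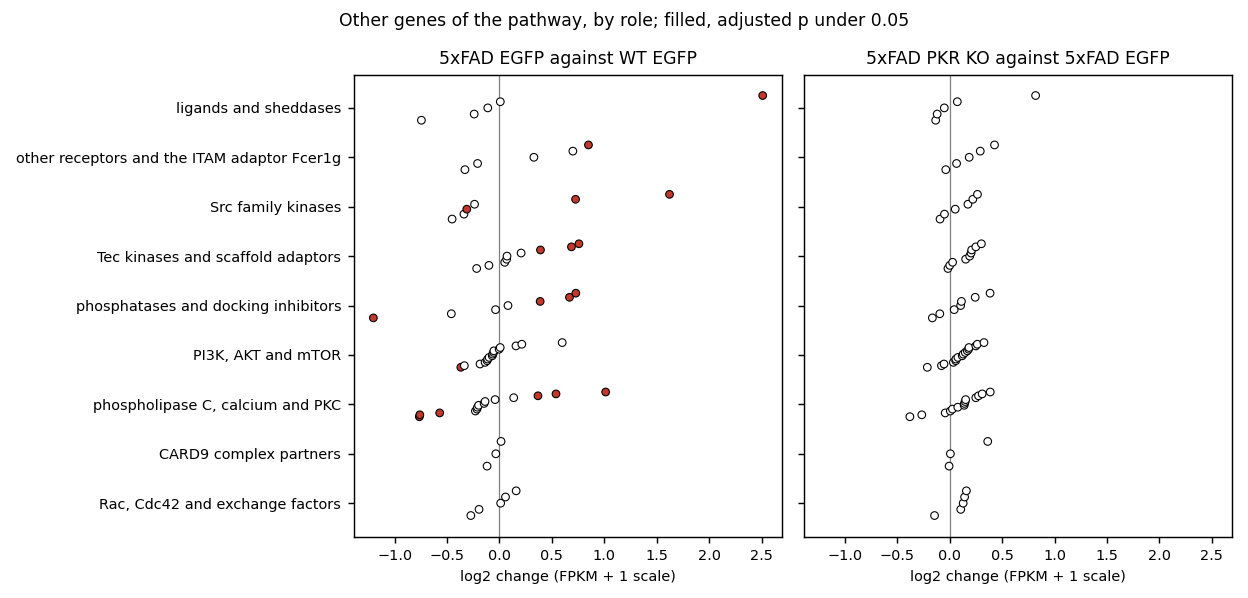
Log2 change in 5xFAD EGFP against wild type on the log2(FPKM + 1) scale (x axis, left panel) and in PKR KO against 5xFAD EGFP (right panel) of the 70 tested genes of the wider list by role (y axis); each point is a gene, and filled points passed an adjusted p of 0.05 with limma. In the left panel 13 genes were called higher and 6 lower, and in the right panel none was called.

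With circRNA against 5xFAD EGFP, 0 of the 70 wider pathway genes were called, as were 0 of all 10817 tested genes (limma). An unadjusted p under 0.05 was found for 0 of the 70, beside 523 of all 10817. With PKR KO against 5xFAD EGFP, 0 were called, beside 0.0832% of all tested genes called higher and 0% lower. Of the 70, 12 had an unadjusted p under 0.05 (limma), where 1404 of all 10817 tested genes did. Their median log2 change was 0.12 over the 70, beside 0.008 over all tested genes. Against wild type, 18 were called higher and 10 lower with circRNA, and 20 higher and 11 lower with PKR KO, beside 17.8% and 8.05% of all tested genes with circRNA and 17.5% and 19.4% with PKR KO. Between the circRNA and PKR KO groups 2 of 70 were called higher with circRNA and 3 lower, beside 4.28% and 1.91% of all tested genes.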

How the data were processed

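The authors deposited 1 table of FPKM values with 19737 genes and 1 column per library. Per the labels' protocols, RNA was extracted with TRIzol, depleted with RiboMinus and made into stranded total RNA libraries; the submitters' processing notes name Bowtie2 2.3.5, HISAT2 2.1.0, featureCounts 1.5.1 and mm10, and the annotation and strand setting are not given in the sources used here. FPKM is divided by the library's total, so a large change in abundant genes moves the others.

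Differences were tested with limma 3.58.1 (R 4.3.3) on log2(FPKM + 1), which understates changes near 1 FPKM, in the 10817 genes whose mean over libraries reached 1 FPKM. All 13 libraries entered 1 model of 4 group means (9 residual degrees of freedom), with an intensity trend, and p-values were adjusted by Benjamini-Hochberg over all tested genes within each of 6 comparisons (threshold 0.05). Fold values are ratios of mean FPKM.

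Fragments were recovered from FPKM steps with exon lengths from GENCODE M21 (GRCm38), which 98.24% of the genes had. Of 47089 values below 0.3 FPKM, 90.73% were whole within 0.02 fragment, and all 117 member values were multiples of 1/12 fragment within 0.01. Depth was 45.2 to 70.0 M (mega) fragments, with 49.2 to 60.7% in listed genes. The fit was tested on simulated data.

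The members and gene lists were chosen with earlier results of these data known. A listed pathway gene and a listed marker are not reported here and were left out of the counts and sums. All 9 members are named, with the 3 genes most correlated with each. Of the wider list, genes called without overlap in 5xFAD EGFP against wild type or PKR KO against 5xFAD EGFP are named, at most 12 by size of change. Prkcb, Rasgrp3 and Plcg1 are named besides, to complete the calls of their role. Positions are from GENCODE M21 and promoters from RefSeq (GRCm38.p6), where 7 of 9 members matched. Alternatives covered the pseudocount (0.1), the filter, 3 scalings, the groups fitted, library weights, a replicate block, other cells' markers as a covariate, voom on recovered fragments and leaving out each library.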

Additional observations from a re-analysis of the deposited data

How the results depend on the processing

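The calls of Trem2, Tyrobp, Hcst and Lat2 with circRNA and with PKR KO against wild type held under each of their 17 alternatives. In 5xFAD EGFP against wild type the count of 4 called members became 1 with the compared groups alone (Tyrobp; over all genes the calls fell from 1514 to 509), 3 with no filter (without Hcst), 5 after quantile normalization (Inpp5d joined as lower) and 1 to 4 when single libraries were left out, where a group left with 1 library is assumed to vary like the others. The calls over all genes in this comparison were 1899 with no filter and 1967 after quantile normalization, against 1514 on the authors' scale. In PKR KO against 5xFAD EGFP 1 member was called with arrayWeights (over all genes the calls rose from 9 to 822). In circRNA against wild type 8 were called after quantile normalization, 8 with the same column sum and 7 with arrayWeights (over all 10817 genes 3163, 5676 and 2947, against 2796 on the authors' scale), against 4 to 7 with single libraries left out (7 without wild type replicate 3). The added calls all ran lower: Syk, Plcg2, Vav1 and Inpp5d under quantile normalization, Syk, Plcg2, Card9 and Inpp5d with the same column sum, and Syk, Card9 and Inpp5d with arrayWeights. Syk was also called lower with the marker covariate (5 called), and Inpp5d in PKR KO against wild type under quantile normalization (5 called). The calls over all genes were 3375 and 3878 there, against 2796 and 3997 on the authors' scale. In circRNA against PKR KO 1 was called with median-ratio scaling, 1 with the compared groups alone and 4 with arrayWeights, all lower with circRNA. Over all 10817 genes the calls were 845, 893 and 3161 under these settings, against 670 on the authors' scale. The same column sum moved the median of all genes in 5xFAD EGFP against wild type from -0.03 to -0.17; relative to it Trem2 was at 1.15, Tyrobp 1.68, Hcst 0.95 and Lat2 0.70.

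Among 891 member values under alternatives, 64 took the other sign, 2 of them called: after quantile normalization Vav1 with circRNA against wild type was -0.29 (limma adjusted p = 0.0239) and Inpp5d with PKR KO against wild type -0.42 (adjusted p = 0.0103). Neither was called on the authors' scale, and the cause was not tested for any of the 64. Log2 changes that changed sign for circRNA against 5xFAD EGFP were, after quantile normalization, Hcst -0.0494, Plcg2 -0.0447, Vav1 -0.0586 and Inpp5d -0.0554; with the same column sum, Hcst -0.0681, Plcg2 -0.0242, Vav1 -0.0112 and Inpp5d -0.0551; with median-ratio scaling, Hcst -0.0442 and Inpp5d -0.0265; with arrayWeights, Hcst -0.0783 and Inpp5d -0.0349; and with the marker covariate, Hcst -0.00702. For PKR KO against 5xFAD EGFP they were Vav1 -0.00067 (quantile), Tyrobp -0.0007 (same column sum), and Tyrobp -0.16 and Hcst -0.0249 (marker covariate). For circRNA against wild type Vav1 was -0.26 (same column sum), -0.17 (arrayWeights) and -0.0492 (marker covariate). For PKR KO against wild type they were Plcg2 -0.15 and Vav1 -0.23 (quantile), Plcg2 -0.0462, Vav1 -0.11 and Inpp5d -0.14 (same column sum), Syk 0.0648 (median-ratio), Inpp5d -0.0456 (arrayWeights), and Plcg2 -0.0154, Vav1 -0.0799 and Inpp5d -0.12 (marker covariate). For circRNA against PKR KO they were Tyrobp -0.0175 (quantile) and -0.0480 (median-ratio), and Hcst 0.0178, Lat2 0.0391 and Vav1 0.0307 (marker covariate).

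With single libraries left out, the log2 change ranged from -0.27 to 0.0361 for Card9 and -0.22 to 0.0212 for Vav1 in 5xFAD EGFP against wild type, from -0.056 to 0.0452 for Syk and -0.067 to 0.11 for Hcst in circRNA against 5xFAD EGFP, and from -0.0588 to 0.18 for Tyrobp in PKR KO against 5xFAD EGFP. It ranged from -0.145 to 0.0779 for Plcg2 and -0.12 to 0.12 for Vav1 in circRNA against wild type, and from -0.19 to 0.0552 for Syk, -0.0244 to 0.22 for Vav1 and -0.0964 to 0.20 for Inpp5d in PKR KO against wild type.

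Adding the replicate block to the fit called 4 members in each comparison with wild type and 0 in the others, as without it. Under the block Syk (0.0589) and Card9 (0.0390) changed sign in circRNA against 5xFAD EGFP, Plcg2 (0.00603) in circRNA against wild type and Syk (0.0207) in PKR KO against wild type. The labels tie no number to a shared animal or day, and the deviations of same-numbered libraries correlated at -0.42 to 0.69 in circRNA against wild type, -0.18 to 0.58 in PKR KO against wild type and 0.04 to 0.55 in circRNA against PKR KO. In these, 2 of 6, 2 of 6 and 2 of 8 libraries correlated best with their own number, so the numbers were not taken as pairs. Comparisons with 5xFAD EGFP share only 2 numbers. Same-numbered libraries correlated at 0.27 to 0.38 in PKR KO against 5xFAD EGFP (4 of 4 best with their own number). They correlated at -0.03 to 0.27 in 5xFAD EGFP against wild type (2 of 4) and at -0.02 to 0.17 in circRNA against 5xFAD EGFP (2 of 4). The deviations of the 2 EGFP libraries from their mean mirror each other, so these counts are not independent and cannot decide on pairing.

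Depth limited Hcst most, at 43 to 303 fragments per library; the other members' counting errors were at most 2.66%.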
